A study of Mus musculus with 9 samples.

Results

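The Sall genes (Sall1, Sall2, Sall3 and Sall4) are the mouse members of the Spalt family of zinc finger transcription factors, and the sites of HOXA13 and HOXD13 around them in distal forelimb cells are described here. A site belonged to a gene when a peak summit lay within the gene body or 200 kb either side of it on mm10 (GRCm38), with gene bounds from GENCODE. Peak intervals of the 6 wild-type (wt) lists that shared at least 1 bp were merged into 1 site. The rule gave 150 merged sites of 138399 on the autosomes and X. Of these, 36 belonged to Sall1, 18 to Sall2, 37 to Sall3 and 59 to Sall4.

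SALL1 and SALL4 bind AT-rich DNA, and SALL proteins recruit the nucleosome remodelling and deacetylase complex (NuRD), through which they mostly repress transcription. Sall1, Sall3 and Sall4 are known from the developing limb bud, heart, kidney and nervous system, and human SALL1 and SALL4 mutations cause syndromes with thumb and radial ray defects. HOXA13 and HOXD13, together called HOX13, are homeodomain factors of the forming digits that bind enhancers and promoters in the same cells.

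Binding was mapped by CUT&RUN, in which an antibody brings a nuclease to the bound protein and the released fragments are sequenced. The 9 libraries came from distal forelimb of B6CBAF1 mouse embryos, obtained from matings of heterozygous carriers, without treatment. There were 3 wt HOXA13 and 3 wt HOXD13 libraries at E12.5, 2 HOXA13 libraries at E12.5 from the II1TDOM 542 line (542), and 1 HOXD13 library labelled E11.5 from that line. According to the methods of the study, 542 embryos were homozygous for a copy of the enhancer II1 with a promoter and the lacZ reporter, inserted on chromosome 2 into T-DOM, the landscape telomeric to the HoxD cluster. Cells of several embryos were pooled, so a library does not stand for 1 animal. The label of wt HOXD13 replicate 3 calls it a reanalysis of an earlier sample. Peak lists hold no marker genes, so the labelled tissue could not be checked from them.

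The lists held 23939 to 117719 intervals, from libraries of 36.9 to 65.5 M read ends as recovered from the peak values. Among wt libraries, HOXD13 replicate 1 had the fewest intervals (23939) and HOXA13 replicate 1 the most (86941). Lists differed in length, so each library's intervals near a gene were divided by the same library's density over the autosomes and X. Fold enrichment is the pileup at the summit over local background, and its rank within a library is given as the percent of that library's intervals with a lower value.

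The 4 windows were of like size, 417 to 420 kb, but differed in what else they held. Sall1 (ENSMUSG00000031665.7, chr8:89027235-89044162) stood alone, with no other protein-coding gene in its window. The Sall2 window (gene at chr14:52311172-52328762) held 13 others, among them Chd8, a chromatin remodeller, and Tox4. Sall3 (chr18:80966376-80986771) shared its window with Atp9b, and Sall4 (chr2:168748332-168767943) with Nfatc2, Atp9a and Zfp64. All 4 genes lie on the minus strand, and distances below are counted from the annotated 5′ end, with upstream meaning away from the gene body.

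**Figure D1:**
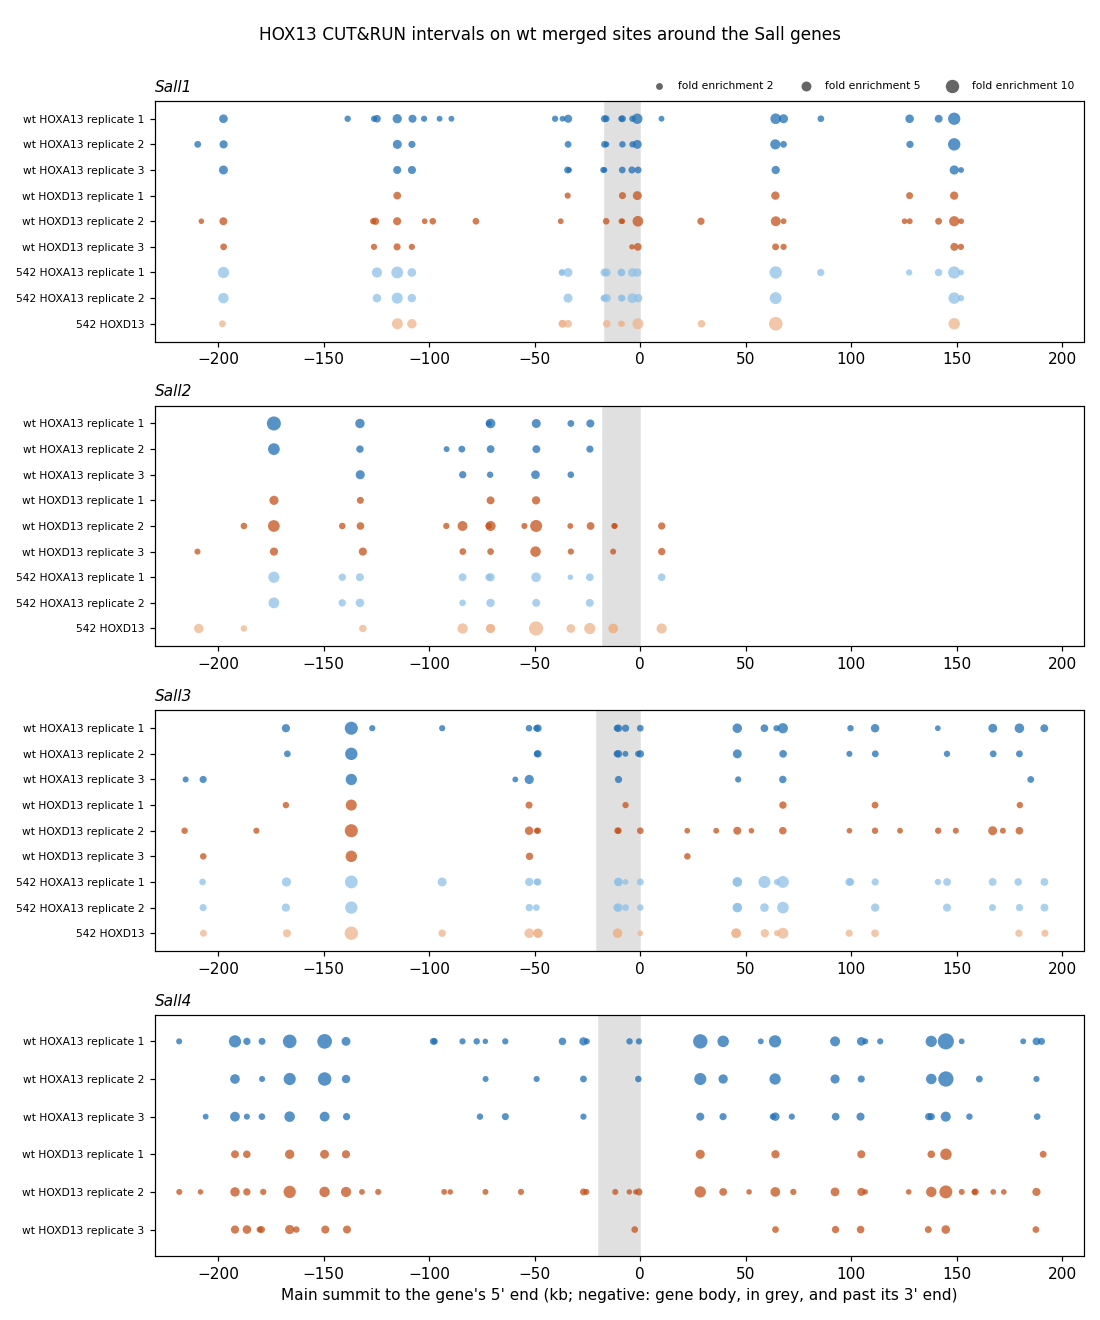
Main summits of the intervals on merged wt sites, by library, against distance from the 5′ end of each Sall gene (kb). Point area follows fold enrichment, grey marks the gene body, blue and orange are HOXA13 and HOXD13, and pale colours are 542 libraries, which are left out for Sall4. The site 137 kb downstream of the Sall3 start has a large point in all 9 libraries, the largest point of all lies 145 kb upstream of the Sall4 start (18.5, HOXA13 replicate 1), and the Sall2 window is nearly empty on its upstream side.

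Sall4 had the densest window in each of the 6 wt lists. The HOXA13 lists called 32, 20 and 22 intervals there in replicates 1, 2 and 3, and the HOXD13 lists called 13, 37 and 16. Divided by the genome density of the same library, the ratios were 2.35, 2.20 and 2.46 for HOXA13 and 3.55, 3.07 and 2.76 for HOXD13. The mean over libraries corresponded to 2.69-fold the genome density (log2 1.43). All 6 ratios were above 1 (exact permutation test by sign-flip over libraries, two-sided, p = 0.031, the lowest possible with 6 libraries, adjusted p = 0.172 over 11 tests). This test takes the 6 libraries as independent. With replicate number as a block, the exact sign-flip permutation p was 0.25. Ratios above 1 in all 6 wt libraries were also seen for 42.3% of the windows of all 21755 protein-coding genes, whose median ratio was 1.31. Of all coding-gene windows, 88.1% to 97.8% had a lower ratio than Sall4 in the 6 libraries.

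Around Sall1 the wt HOXA13 lists called 25, 16 and 13 intervals and the wt HOXD13 lists 7, 22 and 10. Ratios were 1.85, 1.78 and 1.49 for HOXA13 and 1.98, 1.85 and 1.77 for HOXD13. They were above 1 in 6 of 6 libraries, with a mean of 1.78-fold (log2 0.83, exact sign-flip permutation p = 0.031, adjusted p = 0.172). Between 64.3% and 76.6% of coding-gene windows had a lower ratio.

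Sall3 varied most between libraries. HOXA13 ratios were 1.62, 1.87 and 1.04 for 22, 17 and 9 intervals, and HOXD13 ratios were 1.97, 2.08 and 0.751 for 7, 25 and 4 intervals. In both antibodies replicate 3 was the lowest, and the mean of all 6 was 1.46-fold (log2 0.55, higher in 5 of 6, exact sign-flip permutation p = 0.094, adjusted p = 0.220). Without both replicates 3 the mean rose to log2 0.91. Between 29.2% and 76.1% of coding-gene windows had a lower ratio.

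Sall2 lay near the genome density. HOXA13 lists called 9, 10 and 6 intervals (ratios 0.690, 1.13 and 0.715) and HOXD13 lists 4, 16 and 9 (ratios 1.19, 1.36 and 1.60). The mean was 1.06-fold (log2 0.09, higher in 4 of 6, exact sign-flip permutation p = 0.688, adjusted p = 0.756), and it was -0.03 without HOXD13 replicate 3. Between 22.2% and 69.1% of coding-gene windows had a lower ratio. Of the 18 sites, 14 lay downstream of the 3′ end, 3 in the gene body and 1 upstream.

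**Figure D2:**
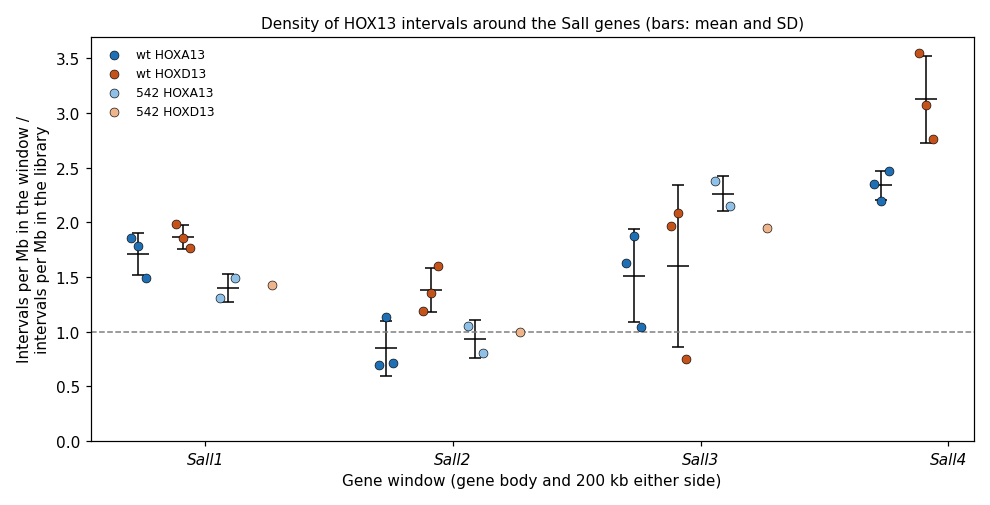
Density ratio of each library (intervals per Mb in the window over intervals per Mb on the autosomes and X) for the 4 windows, with the mean and SD of each group that has replicates. The dashed line marks the genome density. All 6 wt points lie above it for Sall1 and Sall4, while those of Sall2 run from 0.690 to 1.60.

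Relative to their own lists, HOXD13 libraries were denser than HOXA13 libraries around Sall2 and Sall4, where the groups did not overlap. For Sall4 the mean ratio was 2.34 ± 0.134 (SD, n = 3) in HOXA13 and 3.12 ± 0.397 (SD, n = 3) in HOXD13. The difference in mean log2, HOXA13 minus HOXD13, was -0.41 (exact permutation test, p = 0.1, the smallest for 3 against 3, adjusted p = 0.220). For Sall2 the means were 0.845 ± 0.248 and 1.38 ± 0.205 (SD, n = 3 each), a difference of -0.73 with the same exact permutation p of 0.1. Windows in which every HOXA13 ratio lay below every HOXD13 ratio made up 11.2% of all coding-gene windows, and 2.19% had the reverse order. With every list cut to its top 20000 intervals, the Sall4 difference was -0.12 (exact permutation p = 0.5) and the Sall2 difference -1.19 (exact permutation p = 0.1). The Sall4 difference turned to 0.37 with 100 kb either side. For Sall1 and Sall3 the antibody groups overlapped and the differences were -0.13 (exact permutation p = 0.5) and 0.01 (exact permutation p = 1). The difference at Sall1 turned to 0.72 when intervals were kept at 5-fold enrichment or more.

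Most sites were called in few lists. Of the 150 sites, 81 were called in 1 wt list, 54 in 2 to 5 lists and 15 in all 6. The 15 sites are 10.0% of the members, and over all merged sites 10.0% were called in all 6 lists, the same share. By gene, 4 sites of Sall1, 3 of Sall2, 1 of Sall3 and 7 of Sall4 were called in all 6 lists, beside a median of 3 per coding-gene window. These are merged sites, and Sall2 site 5 among them holds no position called in all 6 lists. Fewer such sites were found for 88.9% of coding genes than for Sall4, and for 17.9% than for Sall3. Leaving out both replicates 3 raised the number called in all remaining lists to 23.

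By antibody, 65 sites were called with both factors, 42 in HOXA13 lists alone and 43 in HOXD13 lists alone. Over all merged sites the shares were 42.3%, 38.1% and 19.6%. Exclusive sites were mostly single calls. All 7 HOXD13-alone sites of Sall1 were calls of HOXD13 replicate 2, the longest HOXD13 list. Without that library the merged sites fell from 150 to 117. Without HOXA13 replicate 1, the longest HOXA13 list, they fell to 129. Only Sall1 site 21 was called in all 3 HOXA13 lists and no HOXD13 list, against 1.32% of all merged sites, and no site in all 3 HOXD13 lists and no HOXA13 list, against 0.0318%. Site 21 lies 47 bp past the 3′ end of Sall1 (chr8:89027089-89027495), with fold enrichments of 3.72, 3.29 and 2.25 in HOXA13 replicates 1 to 3. These are low values: 48.5%, 38.7% and 2.05% of the intervals in those libraries were lower. Both 542 HOXA13 libraries also called it, at 4.54 and 3.67, and the 542 HOXD13 library did not.

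By annotation at the main summit, 16 sites were promoters of any gene (within 1 kb of an annotated start), 6 exonic, 60 intronic and 68 intergenic. Over all merged sites, classed by protein-coding genes alone, 11.7% were promoters, 3.81% exonic, 40.6% intronic and 43.9% intergenic. In the Sall3 window, 2 intronic sites and 1 exonic site were placed by AC105065.1, which is not protein-coding. By the rule of the shares these would be intergenic. Of the 15 sites in all 6 lists, 3 were promoters, 5 intronic and 7 intergenic, beside 26.9%, 34.3% and 37.7% of all such sites. The 3 promoters were those of Tox4, Chd8 and Nfatc2, not of a Sall gene. For Sall1, 31 of 36 sites were intergenic and the other 5 lay in the gene itself, and the 7 all-list sites of Sall4 were 4 intergenic, 2 in introns of neighbouring genes and the Nfatc2 promoter.

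**Figure D3:**
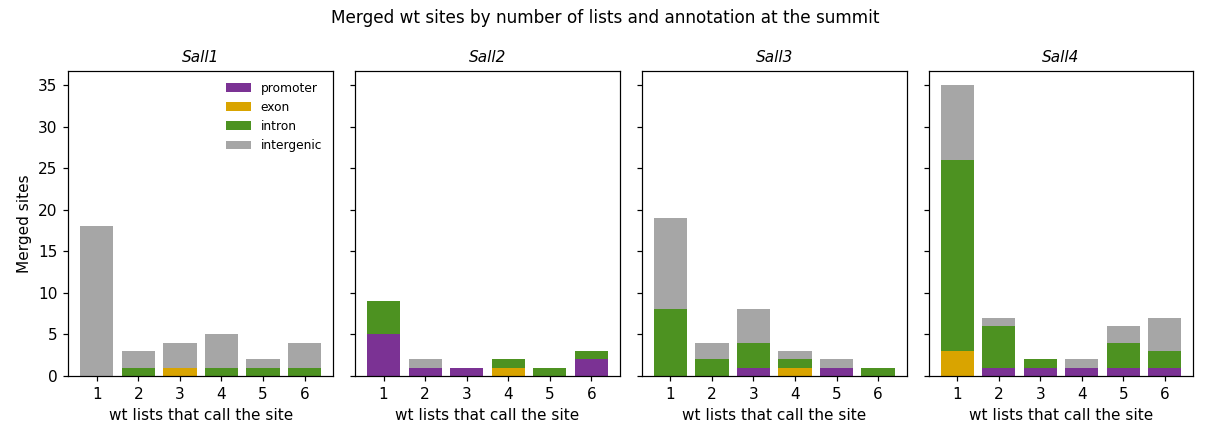
Number of merged wt sites by how many of the 6 wt lists called them, for each gene window, coloured by the annotation at the main summit. Single-list sites form the tallest bar in every window, with 18, 9, 19 and 35 sites for Sall1, Sall2, Sall3 and Sall4, and purple promoter sites in all 6 lists appear for Sall2 (2) and Sall4 (1), none of them at a Sall gene.

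The promoters of the Sall genes themselves were called weakly and in some lists only. A summit within 1 kb of an annotated start was present for all 4 genes in at least 1 wt list, as for 63.5% of all protein-coding genes, and for 0 of 4 in all 6 lists, where the share over coding genes was 19.8%. For Sall1, Sall3 and Sall4 the lists with such a summit were the same: HOXA13 replicates 1 and 2 and HOXD13 replicate 2. By intervals these are the 3 longest of the wt lists. By summits HOXA13 replicate 3 (83850) was longer than HOXA13 replicate 2 (78296). The part of list length was not tested.

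At Sall3 the start-proximal site (site 17) had its summits 19, 3 and 17 bp inside the gene in those lists, with fold enrichments of 3.23, 3.97 and 3.16. The 3 libraries of the 542 line placed a summit 2, 1 and 20 bp inside the start, at 3.44, 2.96 and 2.31. All 6 lists that called the Sall3 start had a summit within 20 bp of it, in intervals that ranked above 9.54% to 57.2% of their library.

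At Sall4 the corresponding site (site 32, chr2:168766856-168767487) reached fold enrichments of 2.84, 3.03 and 3.64 in HOXA13 replicates 1 and 2 and HOXD13 replicate 2. Of the intervals in these libraries, 22.4%, 29.7% and 60.3% were lower. Nothing was called there in the other 3 wt lists. The starts near its summits, at positions 168767029 and 168767201, lie inside the gene as annotated. Its main summit lay 0.678 kb inside the 5′ end.

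Sall1 differed in that no summit came within 500 bp of its start in a wt list. The site nearest to it, site 26 (chr8:89042522-89043639), has its main summit in the intron 1.14 kb from the start, and smaller summits 665, 618 and 682 bp inside the gene put it among the promoter sites. It was called in all 6 wt lists. Fold enrichments were 7.81, 5.65 and 3.40 for HOXA13 and 5.76, 8.14 and 4.28 for HOXD13, and the antibodies overlapped. All 3 libraries of the 542 line called it too, at 5.03, 5.17 and 8.63.

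At Sall2, 3 separate promoter sites (15, 16 and 17) lay around the start at position 52316323 of chromosome 14, inside the gene as annotated. Each was called in 1 wt HOXD13 list, with fold enrichments of 2.63, 2.34 and 2.54, and in no HOXA13 list. The 542 HOXD13 library joined them in 1 interval with a highest fold enrichment of 6.22, above 81.2% of its intervals. That library has no replicate and differs from the wt HOXD13 libraries in stage, genotype and mapping genome, which cannot be told apart. The start at the 5′ end of Sall2 had no summit within 1 kb in any list.

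Apart from Sall1 site 26, the sites called in all 6 lists lay at least 49.7 kb from the 5′ ends. At 137 kb downstream of the Sall3 start, in an intron of Atp9b, site 6 (chr18:80849266-80850484) was called in all 9 libraries. Its wt fold enrichments were 12.2, 10.9 and 9.10 for HOXA13 and 8.75, 12.2 and 9.42 for HOXD13, and at least 97.2% of the intervals in each wt library were lower. The pileup behind these values ran from 62 read ends (95% exact Poisson interval 47.5 to 79.5) in HOXD13 replicate 1 to 256 (226 to 289) in HOXA13 replicate 1. The 6 wt summits fell within 18 bp of each other, where the median spread over all sites in 6 lists was 255 bp. The 542 libraries gave 11.7, 10.9 and 12.8. It was the only site of the Sall3 window in all 6 wt lists. The next 4 were site 25 (67.5 kb upstream, 5 lists, 3.90 to 7.50), site 10 at the Atp9b promoter (5 lists, 3.09 to 6.05), site 14 in a Sall3 intron (4 lists, 2.91 to 4.23) and site 35 (180 kb upstream, 4 lists, 2.93 to 6.53).

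The first site of the Sall4 window by lists and rank was site 48 (chr2:168912176-168913590), in an intron of Zfp64, 145 kb upstream of the Sall4 start. HOXA13 fold enrichments were 18.5, 16.7 and 7.20, and HOXD13 values were 9.40, 12.0 and 5.29. In both antibodies replicate 3 was the lowest. At least 90.2% of the intervals in each wt library were lower. Site 8 (chr2:168601170-168602157), 114 bp from a start of Nfatc2, a calcium-responsive transcription factor gene, ranged from 6.08 to 13.3. Site 10 (chr2:168617814-168618865), intergenic and 150 kb downstream of the Sall4 start, ranged from 6.90 to 15.4 in HOXA13 and from 4.68 to 7.77 in HOXD13. Site 38 (63.8 kb upstream) ranged from 3.28 to 10.7 and site 4, in an Nfatc2 intron 192 kb downstream, from 4.43 to 10.7. One intergenic site outside this ranking, site 33, was picked after its values were seen, because its median rank of 96.5% exceeds that of site 38. It lies 28.4 kb upstream of Sall4, closer than any all-list site of the window, and had fold enrichments of 14.8, 10.5 and 4.66 for HOXA13 and 5.94 and 9.13 for HOXD13 replicates 1 and 2. HOXD13 replicate 3 did not call it. The median rank of site 47, in a Zfp64 intron 138 kb upstream and called in 5 lists, also exceeds that of site 38 (91.1% against 89.1%).

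Around Sall1 the first site by lists and rank was site 35 (chr8:89192232-89193384), intergenic and 149 kb upstream. Fold enrichments were 10.8, 10.97 and 6.05 for HOXA13, 4.88, 7.48 and 4.49 for HOXD13, and 10.6, 9.40 and 9.33 in the 542 libraries. The highest HOXD13 value exceeded the lowest HOXA13 value, so the antibodies overlapped. Site 29, 64.2 kb upstream, ranged from 3.38 to 8.04 in wt and from 10.1 to 13.3 in 542 libraries. Site 7, 115 kb downstream, ranged from 3.61 to 6.09 in wt and from 8.59 to 10.0 in 542 libraries. At both sites every 542 value lay above every wt value, while at Sall1 sites 35, 26, 3 and 24 the genotypes overlapped. At site 3 the 542 values were 9.07, 7.78 and 3.37, beside 3.23 to 5.72 in wt. The 542 values mix HOXA13 libraries at E12.5 with the HOXD13 library labelled E11.5. How many of all merged sites have every 542 value above every wt value was not counted. Over whole lists, median fold enrichment was above every wt median in both 542 HOXA13 libraries, but not in the 542 HOXD13 library. Fold enrichment is set by each library's own background and was not compared between genotypes by a test. Sites 3 (198 kb downstream) and 24 (intron) were called in 5 lists each.

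In the Sall2 window the first 3 sites belonged to other genes by position. Site 12, 38 bp from a start of Tox4, had fold enrichments of 5.77, 4.42 and 5.38 for HOXA13 and 4.88, 10.3 and 7.91 for HOXD13. Site 5 in a Supt16 intron ranged from 3.51 to 6.31, and site 10 at a Chd8 promoter from 2.95 to 7.29. Merging made site 5 2052 bp wide, and its main summits spread over 1383 bp. The single interval of HOXD13 replicate 1 ended at 52196213 and that of HOXD13 replicate 3 began at 52197175. No position of site 5 was thus called in all 6 lists. The highest median rank of the window, 95.9%, was that of site 3 in an Rpgrip1 intron 174 kb downstream (chr14:52154687-52155491), which HOXA13 replicate 3 did not call. It reached 14.1 and 9.86 in HOXA13 replicates 1 and 2 and 6, 9.88 and 4.78 in HOXD13. Site 8 in a Chd8 intron was called in 4 lists, from 3.23 to 7.005.

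**Figure D4:**
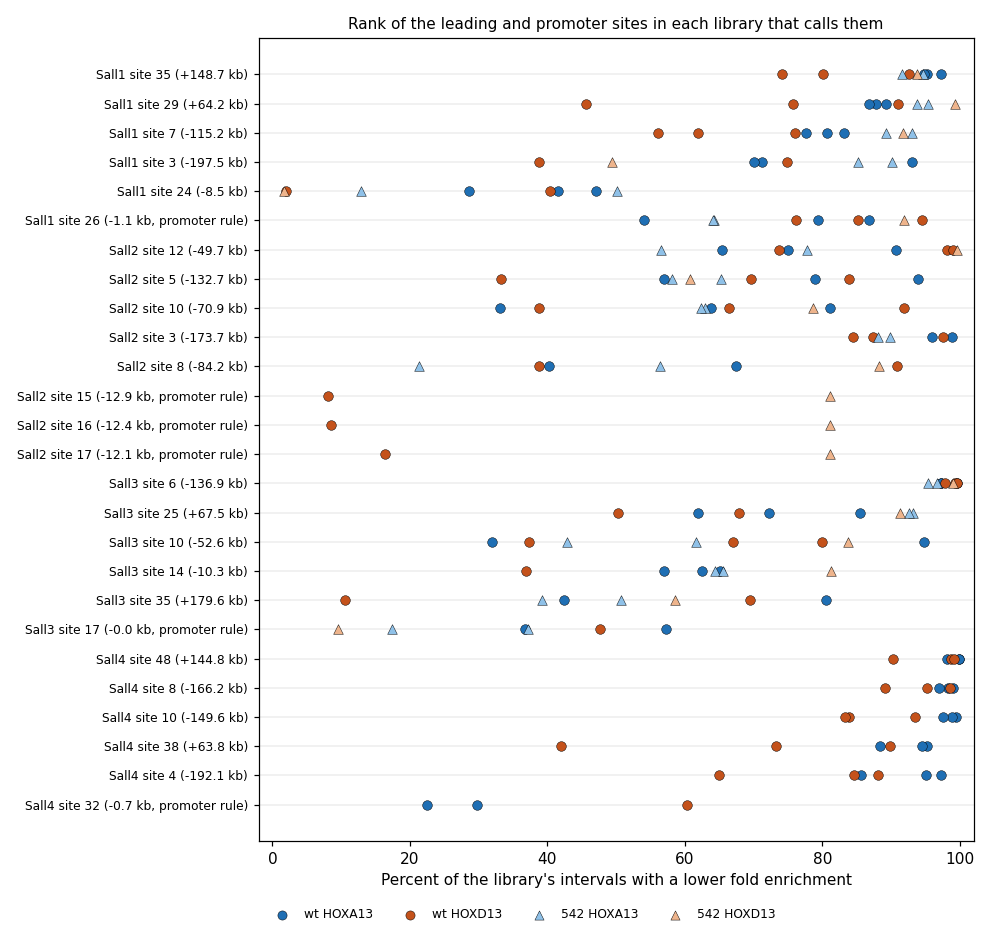
Rank within each library (percent of its intervals with a lower fold enrichment) of the leading sites and promoter sites of each Sall gene, for every library that called them, with distance from the 5′ end in kb. Sall3 site 6 lies at 95.4% or higher in every library, and Sall4 sites 48, 8 and 10 lie at 83.2% or higher in every wt library. The Sall2, Sall3 and Sall4 promoter sites lie at 60.3% or lower in wt libraries.

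Words of the HOX13 consensus lay near the summits of some of these sites. The words CCNATAAA, CCNGTAAA, CTNATAAA and CTNGTAAA were searched on both strands in 50 bp centred on the main summit. They were found at 11 of 150 sites, beside 8.78% of all merged sites, and at 3 of the 15 sites in all 6 lists, beside 14.5% of all such sites. Windows 1 kb away from the summits held a word at 2.20% of all sites. The 3 sites were Sall1 site 35 and Sall4 sites 8 and 10. No match within the window says only that these letters were not there.

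The reference sequence around the summits of these 3 sites is shown because they carry the words, and that of Sall4 site 48, added after its values were seen, because it leads its window without one. Each run is 101 bp of GRCm38, plus strand, centred on the summit, and capitals mark a word of the consensus or its reverse complement.
Sall1 site 35, chr8:89192840-89192940: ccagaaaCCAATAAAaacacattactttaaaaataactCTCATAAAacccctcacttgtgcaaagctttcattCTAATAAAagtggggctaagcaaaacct
Sall4 site 8, chr2:168601721-168601821: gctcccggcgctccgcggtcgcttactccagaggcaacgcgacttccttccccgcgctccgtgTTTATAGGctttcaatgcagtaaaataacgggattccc
Sall4 site 10, chr2:168618298-168618398: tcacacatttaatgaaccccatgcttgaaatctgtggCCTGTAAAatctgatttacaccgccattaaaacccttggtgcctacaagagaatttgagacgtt
Sall4 site 48, chr2:168912668-168912768: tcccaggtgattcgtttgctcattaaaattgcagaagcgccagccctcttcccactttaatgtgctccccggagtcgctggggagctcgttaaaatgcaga

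Sall1 site 35 held 3 words on the plus strand, CCAATAAA, CTCATAAA and CTAATAAA, and only the middle one lay in the 50 bp window. Sall4 site 8 held 1 word on the minus strand, CCTATAAA, upstream of the Nfatc2 start. Sall4 site 10 held CCTGTAAA, centred 9.5 bp below the summit coordinate. Sall4 site 48 held none in 101 bp.

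The 542 libraries were compared with wt for Sall1, Sall2 and Sall3. The Sall4 window is beyond the insertion on chromosome 2, where the 542 lists are numbered on the mutant genome, and was not analysed there. All 8 merged sites called in all 6 wt lists in the 3 windows were also called in all 3 libraries of the 542 line, beside 92.8% of such sites outside chromosome 2. Among the 8, Sall2 site 5 holds no position called in all 6 wt lists. For Sall3, HOXA13 density ratios were 2.37 and 2.15 in 542 and 1.62, 1.87 and 1.04 in wt, so the groups did not overlap. The wt minus 542 difference in mean log2 was -0.62 (exact permutation test, p = 0.2, where 3 against 2 cannot go below 0.1, adjusted p = 0.367). Every 542 ratio above every wt ratio was found for 7.51% of coding-gene windows outside chromosome 2. The difference was 0.039 for intervals at 5-fold enrichment or more. For Sall1 and Sall2 the genotype groups overlapped, with differences of 0.29 (exact permutation p = 0.3) and -0.16 (exact permutation p = 0.6). Genotype and the genome used for mapping cannot be told apart in these values.

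In the Sall3 window the 542 HOXA13 libraries called 37 and 25 intervals and the 542 HOXD13 library 36, of which 14, 8 and 18 touched no wt site. Outside chromosome 2, 27.1%, 17.9% and 44.7% of all intervals in these libraries touched none. Of the 25 merged 542 sites without a wt call, 3 were called in all 3 libraries of the 542 line, beside 6.38% of such sites outside chromosome 2. One lies in a Sall3 intron, at -2.36 kb from the start, with fold enrichments of 2.19 to 2.58. The others lie 105 kb and 121 kb upstream, with 2.55 to 5.36 and 3.63 to 5.00. The Sall1 and Sall2 windows held 16 and 10 merged 542 sites without a wt call, none of them in all 3 libraries.

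Promoters of genes that act with SALL proteins were read from the same lists. Of 11 NuRD subunit genes, 7 had a promoter summit in all 6 wt lists and 4 in some, beside 19.8% of all protein-coding genes in all 6 and 63.5% in at least 1. The 7 were Chd4, the remodelling ATPase, the deacetylase genes Hdac1 and Hdac2, the histone chaperone gene Rbbp4, Gatad2a, Gatad2b and Mbd3. Mta2 and Rbbp7 were called in 5 lists, Mta3 in 2 and Mta1 in 1. Of 8 genes of the limb programme, 1 was called in all 6 lists, Hand2, a factor of the posterior limb bud, and 5 in at least 1, to be read against the same shares. Tbx4 was called in 5, Gli3 and Fgf10 in 2 and Zbtb16 in 1, and Tbx5, Irx3 and Irx5 had no promoter summit in a wt list. The lists were called without a control library, and the coding-gene shares were not matched for expression. At the promoter of the inserted reporter, the study held a CUT&RUN peak to be likely non-specific. Whether promoter summits of these genes hold such signal was not tested. The median density ratio of the windows, taken as the mean over wt libraries, was 1.62 for the Sall genes, 2.06 for the NuRD subunits, 2.44 for the limb genes and 1.31 for all coding genes.

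By the 6 wt log2 density ratios, the coding genes whose windows came nearest to Sall1 were Ddo, Alox15 and Ptges3l, at Euclidean distances of 0.151, 0.159 and 0.162. Those nearest to Sall2 were Rnf25, Vmn1r88 and Stk36 (0.435 to 0.463). Those nearest to Sall3 were Mrps18c, Nkx2-3 and Pdpr (0.251 to 0.296), and those nearest to Sall4 were Ovca2, Hic1 and Pa2g4 (0.182 to 0.219). The distance is over 6 libraries and uses the number of intervals alone.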

How the data were processed

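HOXA13 and HOXD13 CUT&RUN libraries of distal forelimb were read as 9 deposited peak lists, each from a single library, and grouped by title. The growth protocol gives a single collection day, while 1 title gives E11.5, and that library is called by its label. Per the labels and the methods of the study, the authors trimmed reads with Cutadapt, mapped them with bowtie2 on mm10 (wt) or the mutant genome (542), filtered on mapping quality, and called peaks per sample with MACS2 without a control library. Whether duplicates were removed or only marked is described in conflicting ways in the sources, and retained duplicates raise pileups.

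Fold enrichment, a ratio that the authors deposited for each summit, divides its pileup by the background around it. The −log10 p-value and −log10 q-value deposited by the authors come from a Poisson test of that pileup, and the deposited score is made from the latter. Rows with the same bounds were joined into 1 interval, with the highest −log10 p as main summit. Pileups were recovered from fold enrichment and −log10 p and came out whole, within 0.01, for over 99.9% of summits. Poisson intervals (95%, exact) and all depths cover counting error only.

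Density ratios were log2 of (intervals in the window + 0.5) per Mb over the library's intervals per Mb. Exact permutation tests between groups and exact sign-flip permutation tests over libraries were two-sided, with Benjamini-Hochberg adjustment over 11 tests. Replicates are separate samples by label. The members and lists were chosen with earlier results of these data known. Sites were named by rule: promoter sites of each member, up to 5 others by number of wt lists and then median rank, up to 2 sites of 1 antibody alone, the 3 genes with the nearest densities, and sequences of named sites with a consensus word, outside exons and chromosome 18. Functions were tested on simulated data. Annotation was GENCODE release M21 basic, with sequence from RefSeq's GRCm38, and coordinates are 1-based.

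Alternatives were other windows, thresholds, interval sets, references, overlap rules and motif searches, each replicate left out, and replicate number as a block. For the block, wt libraries of both antibodies were paired by the number in their titles. Deviations over 20317 merged sites correlated at 0.111, 0.143 and 0.349 for the same-numbered replicates 1, 2 and 3. Crossing numbers 1 and 2 gave higher values, 0.219 for number 1 of HOXA13 and 0.146 for number 2 of HOXA13. The correlations thus set replicates 3 apart, but do not show which libraries numbered 1 and 2 belong together. That part of the block rests on the titles alone. Tools were samtools 1.23.1, pysam 0.24.0, scipy 1.17.1, matplotlib 3.10.9, pandas 2.3.3 and numpy 2.4.6 under Python 3.11.15.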

Additional observations from a re-analysis of the deposited data

How the results depend on the processing

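No density test passed an adjusted p of 0.05 under any alternative run. The smallest p of each design is too large for that after adjustment over 11 tests. A site missing from a list was not called at that library's depth, which does not show that it is absent. Sall1, Sall3 and Sall4 kept a density above the genome under every alternative, with log2 ranges of 0.44 to 1.24, 0.15 to 0.91 and 0.81 to 2.01. The cause of the changes below was not tested. At 5-fold enrichment or more, the antibody difference became 0.72 for Sall1 and -0.16 for Sall3, and the genotype difference -0.0033 for Sall1, 0.91 for Sall2 and 0.039 for Sall3. With 100 kb either side, the antibody difference became 0.12 for Sall1 and 0.37 for Sall4, and the genotype difference 0.033 for Sall2. With the top 20000 intervals of each list, the antibody difference became 0.22 for Sall1 and the genotype difference -0.13 for Sall1 and 0.49 for Sall2. Against the median of coding-gene windows the Sall2 mean became -0.31. Without both replicates 3 the antibody difference for Sall3 became -0.22.

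Leaving out 1 replicate at a time moved the antibody difference between -0.20 and -0.04 for Sall1, -0.96 and -0.61 for Sall2, -0.46 (without HOXD13 replicate 3) and 0.27 for Sall3, and -0.50 and -0.32 for Sall4. For Sall3 it also turned without HOXA13 replicate 1 (-0.06) and HOXA13 replicate 2 (-0.16). The genotype difference ran from 0.19 to 0.38 for Sall1, from -0.39 to 0.029 (without 542 HOXA13 replicate 1) for Sall2 and from -0.80 to -0.37 for Sall3. The mean against the genome ran from 0.80 to 0.88, from -0.031 (without HOXD13 replicate 3) to 0.21, from 0.44 to 0.74 and from 1.35 to 1.49 for Sall1 to Sall4. Merged sites ran from 117 to 149, and sites in all remaining lists from 14 to 19.

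The replicate block changed no call. Means against the genome kept their values (exact sign-flip permutation p = 0.25 for Sall1 and Sall4, 0.75 for Sall2, 0.5 for Sall3). With the block, the antibody differences kept their values, for example -0.41 for Sall4 with an exact permutation p of 0.250, the smallest for 3 pairs, and the genotype differences were 0.38, -0.06 and -0.37 for Sall1, Sall2 and Sall3 over 2 pairs. Merged sites fell from 150 to 31 at 5-fold enrichment or more and to 66 with a −log10 q of at least 5. Sites in all 6 lists fell to 7 when main summits had to lie within 100 bp and to 3 at 5-fold enrichment or more. They rose to 23 without both replicates 3, an alternative chosen after seeing the data. Sites with a consensus word rose to 19 in a window of 100 bp, and 0 held CCAATAAA in 50 bp.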
